A study of Mus musculus with 3 samples.

Results

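The semaphorins, their plexin and neuropilin receptors and the collapsin response mediator proteins (CRMPs) were described in mouse cultures labelled as purified interneurons. A gene belonged to the set if its symbol named a semaphorin of classes 3 to 7, a plexin, a neuropilin, Plxdc1, Plxdc2 or a CRMP (Crmp1 and Dpysl2 to Dpysl5). This gave 38 genes with 41 probe sets, out of 20748 genes tested. There were 20 semaphorins (the ligands), 11 receptors (9 plexins and 2 neuropilins), 5 CRMPs and the 2 Plxdc genes.

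RNA was measured on 1-colour arrays from 3 biological replicate cultures, which form 1 group with no comparison group. All 3 came from the medial ganglionic eminence (MGE) of wild-type CD-1 embryos at embryonic day 13 and were grown with FGF2 at 40 ng/ml. AraC, a nucleoside analogue that kills cells in DNA synthesis, was given at 1 µM for 24 h from day 5, and RNA was taken 2 days after its wash-out. The label of each culture is purified MGE interneurons. How many embryos went into a culture was not given in the sources used here. Each array measured a whole culture, so the cells that gave a signal are not known, and fewer cells of a type cannot be told apart from less RNA per cell.

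Semaphorins are guidance proteins that repel or attract growing axons and migrating neurons. Those of class 3 are secreted, those of classes 4 to 6 span the membrane, and Sema7a is held at the surface by a lipid anchor. Most class 3 proteins bind a neuropilin, which passes the signal on through an A-type plexin, while the membrane-bound classes bind plexins directly. CRMPs are cytoplasmic proteins that bind tubulin and act downstream of Sema3a. In the embryonic forebrain, MGE interneurons bound for the cortex carry neuropilins and avoid the striatum, where Sema3a and Sema3f are made, and the transcription factor Nkx2-1 represses Nrp2 in the cells that settle in the striatum.

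A gene was called above background if its mean exceeded 6.28 log2 units, the 95th percentile of chemosensory receptor probe sets, in limma's 1-sided moderated test with a Benjamini-Hochberg adjusted p under 0.05 over all probe sets tested. By this rule 35 of the 38 genes (92.1%) were above background, against 63.1% of all genes tested. With a margin, when the mean had to exceed the line by 1 log2 unit, 30 of the 38 were called, against 47.4% of all genes tested. The median of the set was 9.06 log2 units and that of all genes tested was 7.34. Levels of different genes were not ranked, since each probe set binds its target with its own strength.

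**Figure D1:**
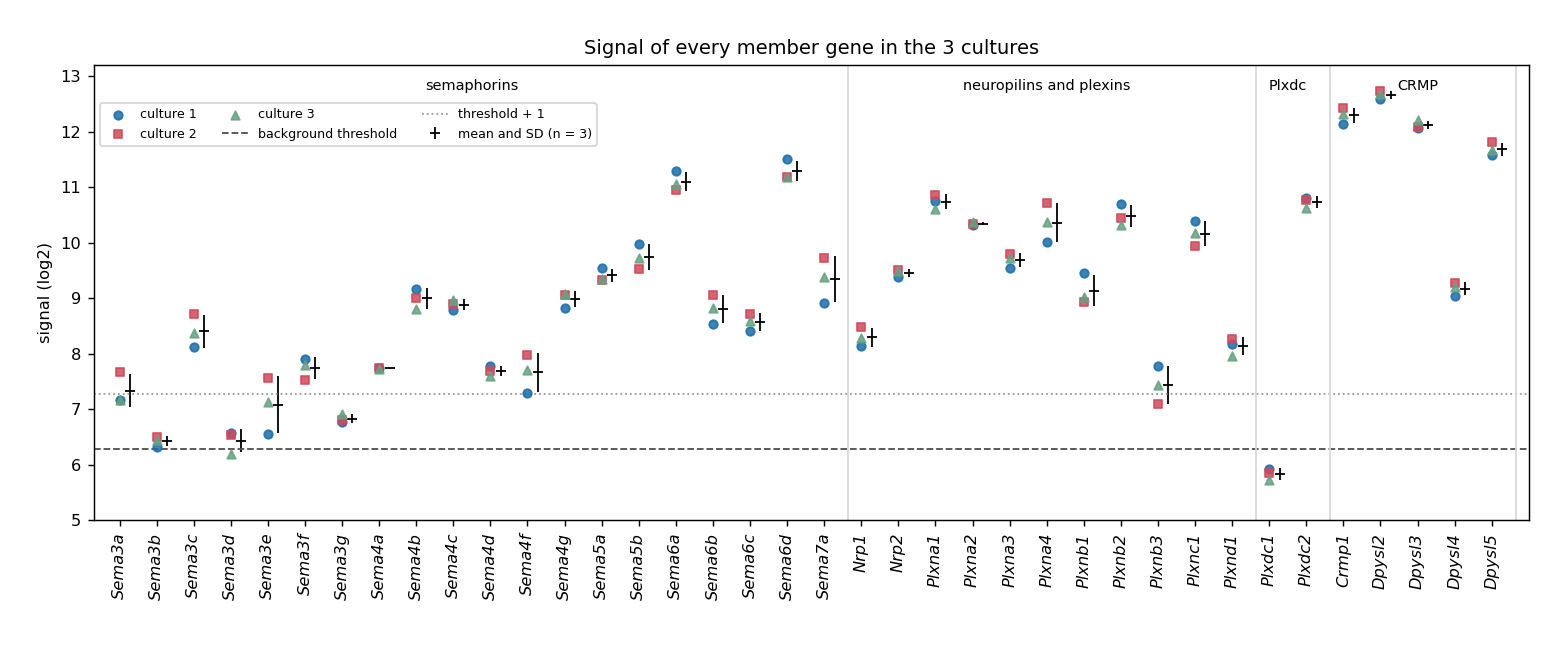
Signal (log2) of the 38 genes in each of the 3 cultures (points), with the mean and SD (n = 3) beside them; the dashed line is the background threshold of 6.28 and the dotted line lies 1 log2 unit above it. Plxdc1 lies below the dashed line, Sema3b and Sema3d lie just over it and missed the call, and all plexins, both neuropilins and all CRMPs lie above it.

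Markers of the labelled cell type gave signal above background, and so did markers of other cells. Of all genes tested 63.1% were above background and 47.4% were with the margin, so a call alone does not show that a cell type was present. All 6 markers of MGE interneurons (Gad1, Gad2, Slc32a1, Lhx6, Nkx2-1 and Sst) were above background, also with the margin. So were all 5 markers of oligodendrocyte precursors, all 3 of progenitors and all 3 of cycling cells, with and without the margin. All 4 astrocyte markers were above background, 3 of them with the margin. All 3 measured markers of myelinating oligodendrocytes were above background, 2 of them with the margin. All 3 markers of endothelium, all 3 of pericytes and fibroblasts and 2 of the 4 of microglia were above background, and none of these was with the margin. None of the 4 markers of cortical glutamatergic neurons was called.

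Of the 20 ligands, 18 were above background (90%), and 14 were with the margin (70%). Of the 11 receptors, all 11 were above background, and 10 (90.9%) were with the margin. The median of the means was 8.48 for ligands and 9.68 for receptors, in log2 units. These medians do not rank the lists by RNA level, since each probe set binds with its own strength. The difference in share was not tested, because genes of a list are not replicates. Of the 6 ligands not called with the margin, 5 were secreted ones. Of the 7 class 3 genes 5 (71.4%) were above background and 2 (28.6%) with the margin. All 13 genes of classes 4 to 7 were above background and 12 (92.3%) with the margin. For all genes tested the shares were 63.1% and 47.4%.

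**Figure D2:**
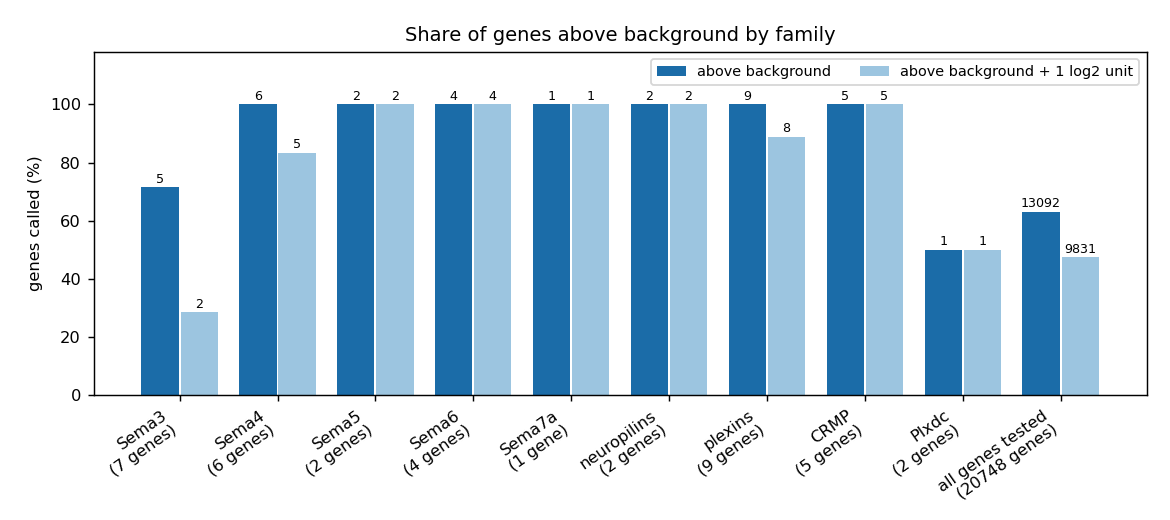
Share of genes (%) called above background (dark bars) and above background plus 1 log2 unit (light bars) in each semaphorin class, receptor family, the CRMPs, the Plxdc genes and all genes tested, with the number of genes called over each bar. Class 3 drops to 2 of 7 genes with the margin, while neuropilins, plexins and CRMPs hold 2 of 2, 8 of 9 and 5 of 5.

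Among the class 3 ligands, Sema3c and Sema3f stood clear of the line. Sema3c, which attracts as well as repels in the forebrain, measured 8.12, 8.71 and 8.37 log2 units in cultures 1, 2 and 3 (8.40 ± 0.30, SD, n = 3, limma adjusted p = 7.16e-05). Sema3f, the neuropilin-2 ligand of the striatum, measured 7.91, 7.53 and 7.79 (7.74 ± 0.19, adjusted p = 8.06e-05). All cultures lay over the line by more than 1 log2 unit for both genes.

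Sema3a, the repellent that signals through neuropilin-1, was above background by a smaller amount. It measured 7.16, 7.67 and 7.16 log2 units in cultures 1, 2 and 3 (mean 7.33 ± 0.29, limma adjusted p = 0.000941). Culture 2 was high and the other two lay together. Its call was lost with the margin (adjusted p = 0.712).

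Sema3e, which can bind Plxnd1 without a neuropilin, varied most of all 38 genes. It measured 6.54, 7.56 and 7.12 log2 units in cultures 1, 2 and 3, a span of 1.02. Culture 1 lay just over the line and culture 2 well above it. The gene was called with all 3 cultures (7.08 ± 0.51, SD, n = 3, limma adjusted p = 0.0153), but lost its call when culture 2 (0.116) or culture 3 (0.0927) was left out.

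Sema3g, a ligand made by blood vessels that acts through neuropilin-2, measured 6.77, 6.80 and 6.92 log2 units in cultures 1, 2 and 3 (limma adjusted p = 0.000569). The cultures lay close together, all within 1 log2 unit of the line. Sema3b measured 6.32, 6.50 and 6.45 and missed the call (6.42 ± 0.09, adjusted p = 0.0661), though every culture was over the line and it passed without culture 1 (0.0372). Sema3d measured 6.56, 6.53 and 6.19, with culture 3 under the line. It missed the call too (6.43 ± 0.21, adjusted p = 0.157) and passed without culture 3 (0.0366). Sema3a, Sema3d and Sema3e lie near each other on 1 chromosome, with no protein-coding gene between Sema3d and Sema3a and 3 between Sema3a and Sema3e. Sema3b and Sema3f also lie close, with 3 protein-coding genes between them, although Sema3f was called and Sema3b was not.

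All 6 class 4 semaphorins, which span the membrane, were above background. The means of Sema4b (8.99 ± 0.19), Sema4c (8.88 ± 0.10) and Sema4g (8.98 ± 0.15) exceeded the line by more than 2 log2 units each. Sema4a, first studied on immune cells, was almost the same in every culture (7.74, 7.75 and 7.73), the smallest SD of the set. Sema4d, the ligand of Plxnb1 that oligodendrocytes make in the mature brain, measured 7.77, 7.68 and 7.60 in cultures 1, 2 and 3 (7.68 ± 0.09). Sema4f measured 7.29, 7.98 and 7.71 (7.66 ± 0.35, limma adjusted p = 0.000599). Culture 1 was its lowest and culture 2 its highest, and its call was lost with the margin (adjusted p = 0.0646).

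Classes 5, 6 and 7 were above background throughout, also with the margin. Sema5a and Sema5b, membrane proteins with thrombospondin repeats, averaged 9.41 ± 0.12 and 9.74 ± 0.23 log2 units. Both were highest in culture 1 and lowest in culture 2, except that culture 3 was the lowest for Sema5a after median centring. Among the class 6 genes, Sema6a, a ligand of Plxna2 and Plxna4, measured 11.29, 10.95 and 11.05 in cultures 1, 2 and 3. Sema6d, a ligand of Plxna1, measured 11.50, 11.18 and 11.18, with culture 1 again the highest. Sema6b ran the other way at 8.54, 9.05 and 8.82, and Sema6c at 8.40, 8.72 and 8.58. Sema7a, the lipid-anchored ligand of Plxnc1 and of integrins, had the second largest SD of the set (9.34 ± 0.41). It measured 8.91, 9.73 and 9.38, with culture 2 high and culture 1 low.

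Both neuropilins were above background in every culture. Nrp1, the co-receptor for Sema3a, measured 8.13, 8.47 and 8.28 log2 units in cultures 1, 2 and 3 (8.30 ± 0.17, SD, n = 3, limma adjusted p = 1.87e-05). Nrp2, the co-receptor for Sema3f, measured 9.38, 9.50 and 9.48 (9.46 ± 0.07, adjusted p = 1.75e-06). For both genes culture 2 was the highest and culture 1 the lowest, except that culture 3 was the highest for Nrp2 after quantile normalization. Nkx2-1, the repressor of Nrp2 named above, was above background in the same cultures, at 9.06, 9.34 and 9.07 (9.16 ± 0.16). Whether the same cells held both cannot be told from whole-culture arrays.

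The 4 A-type plexins, the signalling partners of neuropilins, were all above background with the margin. Plxna1 measured 10.74, 10.86 and 10.60 log2 units in cultures 1, 2 and 3, and its other probe set measured 7.55, 7.62 and 7.40. Plxna2 measured 10.32, 10.33 and 10.37, the smallest SD of the receptors (0.03). Both Plxna1 probe sets were highest in culture 2 and lowest in culture 3. Plxna3 measured 9.54, 9.79 and 9.71. Plxna4, which serves Sema3a with Nrp1 and Sema6a without it, measured 10.01, 10.71 and 10.36, the largest SD of the receptors (0.35). Its highest culture was culture 2 and its lowest culture 1, as for Nrp1.

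The B-type plexins, receptors for class 4 semaphorins and for Sema5a, were highest in culture 1. Plxnb1 measured 9.45, 8.93 and 9.01 log2 units in cultures 1, 2 and 3, and its other probe set measured 7.12, 6.98 and 6.78. Plxnb2 measured 10.69, 10.44 and 10.31. Plxnb3, which oligodendrocyte-lineage cells are known to express, measured 7.78, 7.09 and 7.43 (7.43 ± 0.35, limma adjusted p = 0.00115). It was the one receptor whose call was lost with the margin (adjusted p = 0.367). The 2 other plexins were called with the margin too. Plxnc1, the receptor of Sema7a, measured 10.39, 9.93 and 10.17, and Plxnd1, the receptor of Sema3e, measured 8.17, 8.27 and 7.96. Sema7a was lowest where Plxnc1 was highest, in culture 1, and highest where Plxnc1 was lowest, in culture 2.

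The promoters of a strongly CpG-containing receptor, Nrp2, and a CpG-poor one, Plxnb3, are shown. Both genes were above background, but with the margin only Nrp2 was. Whether CpG content bears on the signal was not tested. Each line gives the 250 bases before the start site, 5′ to 3′, from RefSeq on GRCm38.p6, with CpG dinucleotides in capitals. Nrp2 lies at chr1:62703067-62703316 on the plus strand and holds 32 of them, and Plxnb3 lies at chrX:73756853-73757102 on the plus strand and holds 3.
Nrp2: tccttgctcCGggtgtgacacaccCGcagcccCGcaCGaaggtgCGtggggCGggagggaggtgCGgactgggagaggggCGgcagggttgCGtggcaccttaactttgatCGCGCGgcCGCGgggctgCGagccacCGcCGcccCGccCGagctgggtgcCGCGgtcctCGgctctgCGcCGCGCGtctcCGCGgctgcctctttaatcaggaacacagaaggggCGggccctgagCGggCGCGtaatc
Plxnb3: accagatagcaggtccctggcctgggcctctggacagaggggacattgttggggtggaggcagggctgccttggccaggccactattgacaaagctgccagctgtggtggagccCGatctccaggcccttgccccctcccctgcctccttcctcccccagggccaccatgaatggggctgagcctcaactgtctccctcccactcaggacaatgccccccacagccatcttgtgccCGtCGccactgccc

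RefSeq promoters, 300 bases each with 50 of them after the start site, were matched for 28 of the 38 genes, which had 40 promoters. The observed over expected CpG ratio exceeded 0.6 in 21 of the 40 (52.5%), against 35.8% of all 32851 promoters in the table. For ligands it was 12 of 27 and for receptors 6 of 10. Ligand promoters under that ratio included all 4 of Sema4a and all 3 of Sema4d, membrane-bound ligands that were above background. Of the called class 3 genes, Sema3a (0.16), Sema3e (0.58) and Sema3g (0.31) lay under it and Sema3c (0.98) did not. Sema3f, called too, had no matched promoter.

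The letters CAAGTG, the core of an NK2-family homeodomain site such as that of Nkx2-1, were searched on both strands, so CACTTG counted too. Each match was a description of letters and not a site. They were in 3 of the 40 promoters of the set (7.5%), against 13.6% of all promoters. The 3 belonged to Sema3c, Sema4b and Sema4d, and in the last 2 the match was not wholly upstream of the start site. Neither Nrp1 nor Nrp2 had a match in its window. The stretch of the Sema3c promoter with the match is shown, since only this match lay wholly upstream of the start site. It is chr5:17574709-17574768 on the plus strand of GRCm38.p6, with the match in capitals.
Sema3c: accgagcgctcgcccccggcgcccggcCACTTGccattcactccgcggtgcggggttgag

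All 5 CRMPs were above background by more than 2 log2 units in every culture. Dpysl2, the CRMP best known for binding tubulin in axons, measured 12.59, 12.73 and 12.68 log2 units in cultures 1, 2 and 3 (limma adjusted p = 1.4e-06). Crmp1 measured 12.15, 12.42 and 12.31, and Dpysl3 measured 12.07, 12.09 and 12.21, with 8.47, 8.27 and 8.39 at its other probe set. All 3 are common proteins of young neurons. Dpysl4 measured 9.05, 9.27 and 9.19, and Dpysl5, the most divergent in sequence, measured 11.57, 11.81 and 11.67. At the probe sets with the highest mean the 5 genes were each lowest in culture 1, on the deposited scale and under both other scalings (quantile, median), but the other Dpysl3 probe set was highest there. Their median SD was 0.11, against 0.12 for all genes above background.

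The Plxdc genes carry a plexin-like domain but are receptors of the secreted factor Serpinf1 and not of semaphorins. Plxdc1, first found in tumour vessels, measured 5.92, 5.84 and 5.71 log2 units in cultures 1, 2 and 3, under the line in each (limma adjusted p = 1). It was the one gene of the 38 with no culture over the line. Plxdc2 measured 10.81, 10.77 and 10.61 (10.73 ± 0.10, adjusted p = 1.42e-06), far above it. Serpinf1 itself was above background at 7.09, 7.31 and 7.01.

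Ligands and receptors were set against each other in 24 textbook pairs. In 22 pairs both genes were above background, and in the other 2 (Sema3b with Nrp2 and Sema3d with Nrp1) the receptor was and the ligand was not. With the margin both were called in 18 pairs. The receptor alone was called in 5, which were Sema3a and Sema3d with Nrp1, Sema3b and Sema3g with Nrp2, and Sema3e with Plxnd1. The ligand alone was called in 1, Sema5a with Plxnb3. All 5 pairs with the receptor alone had a secreted class 3 ligand, but this followed from the list of pairs. Sema4f, the only ligand of another class not called with the margin, was in none of the 24 pairs. Pairs that share a gene are not independent. The count of pairs also follows largely from the single genes, since 18 of 20 ligands and all 11 receptors were above background. For all genes tested that share was 63.1%.

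Most other genes of the pathway gave signal as well. Of 48 listed partner genes 44 were measured, and 41 (93.2%) were above background, against 63.1% of all genes tested. With the margin 34 (77.3%) were called, against 47.4% of all genes tested. Among surface partners, L1cam (10.58 ± 0.15), the adhesion protein that joins Nrp1 in Sema3a responses, Chl1 (11.62 ± 0.24), its relative, and Robo1 (10.89 ± 0.08), a slit receptor that binds Nrp1 in interneurons, were called with the margin. So were Itgb1 (9.79 ± 0.12), an integrin subunit that Sema7a binds, and Erbb2 (7.81 ± 0.16), a receptor kinase that joins Plxnb1. Cntn2 (7.42 ± 0.06), Met (7.17 ± 0.24), Kdr (7.36 ± 0.12) and Itga1 (7.01 ± 0.26) were called without it only. Timd2 (5.16 ± 0.12), a receptor for Sema4a on immune cells, and Mst1r (6.12 ± 0.23), a kinase that joins B-type plexins, were not above background.

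Inside the cell, 28 of 29 measured partners were above background (63.1% of all genes tested), 26 with the margin (47.4% of all genes tested). Fyn (11.04 ± 0.06) and Cdk5 (11.12 ± 0.16), kinases of the Sema3a response, and Gsk3b (11.65 ± 0.08), a kinase of CRMPs, were among them. The flavoprotein oxidases Mical1 (7.68 ± 0.32), Mical2 (8.80 ± 0.11) and Mical3 (8.62 ± 0.03), which bind plexins and take apart actin filaments, were too. Fes (6.32 ± 0.04, limma adjusted p = 0.359), a kinase that binds Plxna1, was the exception. Furin (9.12 ± 0.11), which cleaves class 3 semaphorins, and Vegfa (8.58 ± 0.36), the other main ligand of neuropilins, were above background with the margin.

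The 3 cultures differed more in some of these genes than in most others. Between their lowest and highest culture 9 of the 38 genes (23.7%) spanned more than 0.5 log2 units, against 12% of all genes above background. The limit was chosen after the values were seen. Sema3a (0.508), Sema6b (0.518) and Plxnb1 (0.521) passed it narrowly, so the share depends on where it was set. Of these 9 genes 7 (Sema3a, Sema3c, Sema3e, Sema4f, Sema6b, Sema7a and Plxna4) were highest in culture 2 and lowest in culture 1, Sema3a by a narrow margin over culture 3. The other 2 (Plxnb1 and Plxnb3) were highest in culture 1 and lowest in culture 2. These orders, taken at the brightest probe set of each gene, held after quantile normalization and after median centring. The other Plxnb1 probe set was highest in culture 1 too, but lowest in culture 3, with a span of 0.34. With 1 array per culture the differences between cultures have no test, and of all genes above background 52.2% were highest in culture 2 and 43.8% lowest in culture 1.

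**Figure D3:**
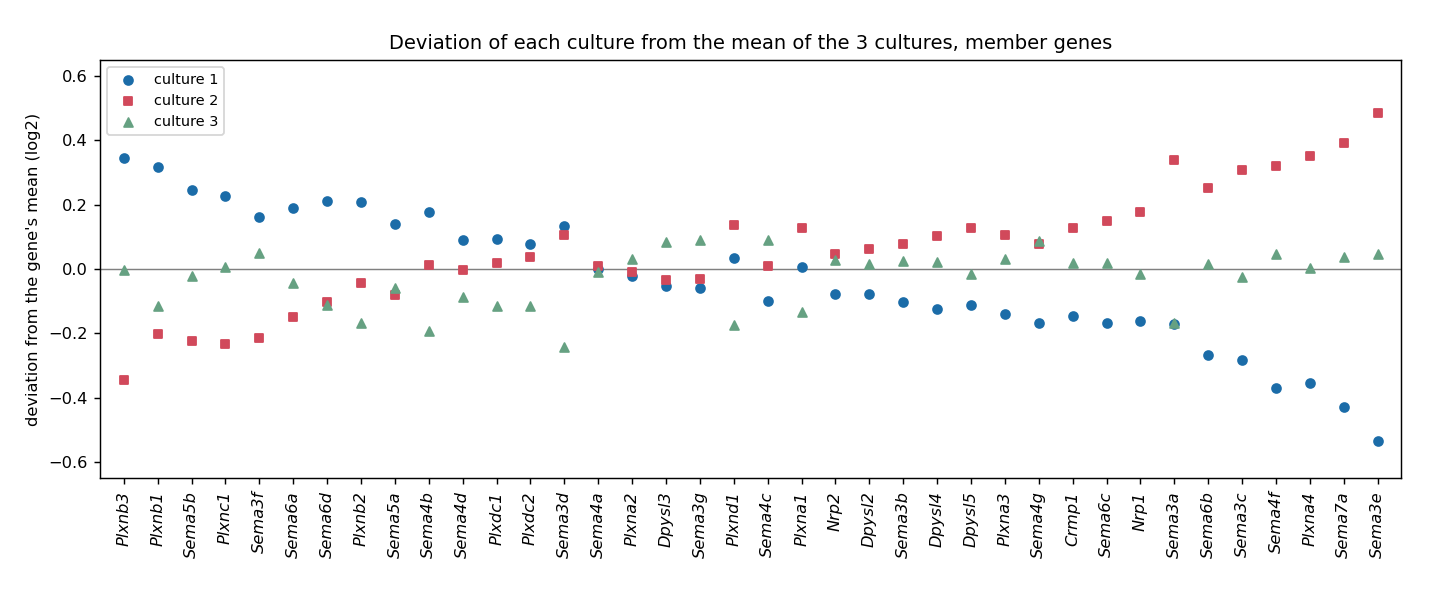
Deviation of each culture from the 3-culture mean (log2) for the 38 genes, ordered by culture 2 minus culture 1. Plxnb3 and Plxnb1 at the left are highest in culture 1, and Sema7a and Sema3e at the right are highest in culture 2, while culture 3 mostly lies between.

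The ligands, and likewise the receptors, included genes that were highest in culture 1 (8 of 20 ligands and 4 of 11 receptors) and genes that were highest in culture 2 (9 and 6). The median deviation of the 20 ligands from their own means was -0.08, 0.04 and 0.00 log2 units in cultures 1, 2 and 3, and that of the 11 receptors was 0.01, 0.05 and 0.00. Members of each list lay on both sides of 0 in culture 1.

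Markers of the cell types also differed between the cultures. All 6 markers of MGE interneurons were highest in culture 2 and lowest in culture 1, with a list mean of 10.10, 10.62 and 10.47 log2 units in cultures 1, 2 and 3. After quantile normalization 5 of the 6 were highest in culture 2. All 4 astrocyte markers ran the other way, with a list mean of 9.96, 8.83 and 9.55, as did all 3 measured markers of myelinating oligodendrocytes at 8.34, 7.59 and 7.72, of which 2 kept that order after median centring. Progenitor markers (11.30, 10.94 and 11.05) and cycling-cell markers (10.10, 9.83 and 9.83) were all highest in culture 1. Markers of cortical glutamatergic neurons, none of them called in the test over the 3 cultures, were all highest in culture 2 (5.93, 6.69 and 6.05). In that culture Slc17a7 (7.22) and Slc17a6 (7.01) lay over the line and Neurod6 (6.283 against 6.279) barely did. Slc17a7 was over it in culture 3 too (6.63). General neuronal markers (list mean 12.20, 12.38 and 12.39) had no common highest culture, with 1 of 4 highest in culture 2. That number was 2 after quantile normalization and 3 after median centring. In all 3 scalings 3 of the 4 were lowest in culture 1. Of the oligodendrocyte precursor markers 4 of 5 were highest in culture 1 (10.34, 10.14 and 10.17), and Cspg4 was highest in culture 2. Of the 38 genes, 16 had the same highest and lowest culture as the interneuron markers, Sema7a and Plxna4 among them. The order of the astrocyte markers was found in 7, among them Plxnb3, Sema5b and the brightest probe set of Plxnb1. How many of all genes shared both the highest and the lowest culture was not counted. By highest culture alone, 50% of the 38 genes were highest in culture 2 and 36.8% in culture 1. For all genes above background these shares were close, at 52.2% and 32.4%. The part of cell makeup in these differences was not tested.

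**Figure D4:**
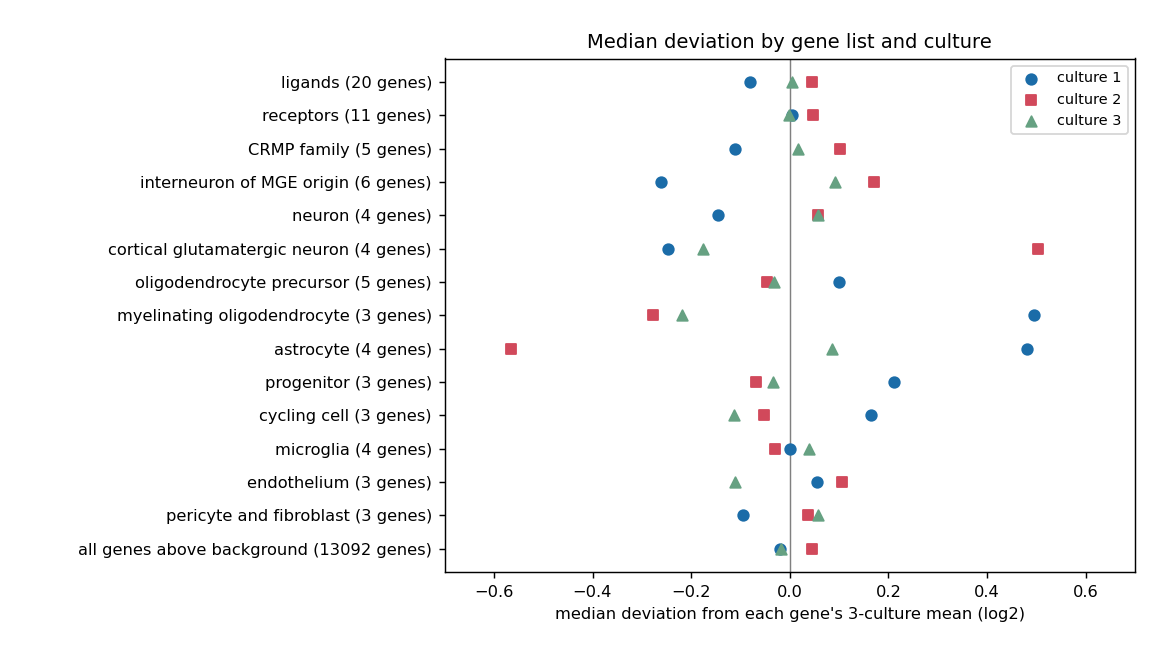
Median deviation (log2) from each gene's 3-culture mean, by gene list and culture, for ligands, receptors, CRMPs, marker lists and all genes above background. Ligands and receptors stay within 0.1 of 0, while astrocyte markers spread between -0.57 in culture 2 and 0.48 in culture 1.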

How the data were processed

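The values are log2 signals, 1 per culture for each probe set, that the authors deposited. They were made with oligo and RMA per the submitters' processing notes (background correction, normalization between arrays, summary of each probe set). Their versions, their settings and a genome build are not stated there. Arrays give no read depth, so the number of arrays (3) limits the precision.

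Of 41345 probe sets, 23521 have 1 gene symbol in the platform's table, and only these were used. All 38 gene identifiers were found in RefSeq's GRCm38.p6 table and 0 symbols differed. Background was the 95th percentile of the means of 1443 olfactory, vomeronasal and taste receptor probe sets. The other 22078 probe sets (20748 genes) were tested with limma 3.58.1 in R 4.3.3 as an intercept against that line (prior df 2.13). A gene counted as called with 1 called probe set, and its printed value belongs to its brightest probe set.

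The test was tried on simulated data: of 50 probe sets each at 0.25, 0.5, 1 and 2 log2 units above the line, 34, 49, 49 and 50 were called in a fit of 22078, and of 7407 at or below it 8 were. The 7407 kept their measured means and were not placed at the line, so the 8 say little about false calls close to it. Alternatives changed the threshold, the test, the prior, the scaling, the filter, the probe summary and the cultures used. Every member is named. Values per culture are given for neuropilins, plexins, CRMPs, members not called or whose call changed, and the 5 largest SDs, and for others chosen after their values were seen. Members and lists were chosen with earlier results of these data known. Cd72, Rap1a, Gsk3a and Pak1 had no probe set of their own and were not measured. A marker gene is not reported here.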

Additional observations from a re-analysis of the deposited data

How the results depend on the processing

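Over 13 alternatives the number of the 38 genes above background ran between 30 (margin of 1 log2 unit, and a threshold of 7.40 from 85 probe sets of other families) and 37 (90th percentile). For ligands it ran between 14 and 20 of 20, for receptors between 10 and 11 of 11, and for CRMPs it was 5 of 5 in every one. Leaving out 1 culture gave 34 to 36 genes, 17 to 19 ligands and 11 receptors. Partner genes ran between 33 and 43 of 44, and all genes tested between 9452 and 15018.

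Of 494 calls of single genes under an alternative, 473 were as reported, 16 (5 genes) were lost and 5 (2 genes) were gained. Sema3a, Sema3e, Sema3g and Plxnb3 were lost at the 99th percentile, with the margin and with the other families, and Sema4f with the margin and the other families. Sema3e was also lost without culture 2 or 3. Sema3b and Sema3d were gained at the 90th percentile (adjusted p = 0.000462 and 0.00241). Sema3b was gained also when every culture had to lie over the line with no test. The cause was not tested, except that a higher or lower line changes calls by construction. Over the scalings the median deviation in culture 2 ran between 0.01 and 0.08 for ligands and for receptors. In culture 1 it ran between -0.10 and -0.08 for ligands and between -0.02 and 0.01 for receptors. No paired analysis was possible because the 3 cultures form 1 group.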
